A study of Mus musculus with 6 samples.

Results

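Of the genomic regions that were more accessible in FOP mutant than in wild-type mouse embryonic fibroblasts, 357 lay within 10 kb of another such region and formed 170 clusters. The authors listed 2965 regions as more accessible, here named gained, and 556 as less accessible, here named lost, so that the clustered regions were 12.0% of the gained regions (exact 95% interval 10.9 to 13.3%) and 357 of 3521 regions in all. A region was a member if the gap to a neighbouring gained region on the same chromosome, from the end of one to the start of the next, was at most 10 kb. Members were chained into clusters with the same limit. The other 2608 gained regions are here named isolated. The gap was measured on the authors' deposited list, so the number, size and spacing of clusters are given as descriptions without a test.

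Open chromatin was measured by ATAC-seq, an assay that uses a transposase to tag accessible DNA, in 3 libraries of FOP mutant cells (Acvr1R206H/+) and 3 libraries of wild-type cells (Acvr1+/+). Both groups were fibroblasts isolated at embryonic day 13.5 and grown in medium with fetal bovine serum. Mutant cells were heterozygous for the R206H change in ACVR1, a BMP type I receptor by the labels, which do not say whether the allele was inherited or induced in culture. The libraries are described as biological replicates, and whether any was made from pooled embryos is not stated in the labels. The deposited lists hold the position of each region without read counts, fold changes, p-values or values of single libraries. Depth is therefore unknown, and the size of a gain and its replicate error cannot be given. The lists hold only regions that changed, so markers of fibroblasts could not be used to check the labelled cell type.

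In fibrodysplasia ossificans progressiva (FOP) bone forms progressively within muscle, tendon and ligament, and the R206H receptor that causes it is known for overactive BMP signalling through SMAD proteins. Regulatory elements that lie away from gene starts, such as enhancers, often occur in groups around genes that are strongly used in a cell type. A peak caller can also divide a single broad open domain into several neighbouring regions. Positions alone do not tell these cases apart.

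Few clustered regions lay at an annotated gene start. The promoter windows that they overlapped are shown here, because sequence of clustered regions could be read only within such windows. Of 340 clustered regions on chromosomes with promoter windows, 3 (0.882%, exact 95% interval 0.182 to 2.56%) overlapped a window of 250 bases before to 50 bases after a start. The same held for 20 of 2506 isolated gained regions (0.798%, 0.488 to 1.23%) and 9 of 534 lost regions (1.69%, 0.773 to 3.18%). The windows, from RefSeq on GRCm38.p6, belong to Cacnb2, which encodes a regulatory subunit of voltage-gated calcium channels, and to the long noncoding RNA genes 3110009F21Rik and 2700003A03Rik. These genes were chosen after their values were seen. The sequences read 5′ to 3′ on the strand of the gene, and capitals mark matches to the motifs searched.
Cacnb2, chr2:14823842-14824141, plus strand: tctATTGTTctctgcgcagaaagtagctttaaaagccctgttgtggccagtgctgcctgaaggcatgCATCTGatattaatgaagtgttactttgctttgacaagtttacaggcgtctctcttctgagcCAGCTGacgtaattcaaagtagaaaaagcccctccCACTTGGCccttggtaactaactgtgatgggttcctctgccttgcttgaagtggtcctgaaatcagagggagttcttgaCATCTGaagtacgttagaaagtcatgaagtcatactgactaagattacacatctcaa
3110009F21Rik, chr12:110158024-110158323, minus strand: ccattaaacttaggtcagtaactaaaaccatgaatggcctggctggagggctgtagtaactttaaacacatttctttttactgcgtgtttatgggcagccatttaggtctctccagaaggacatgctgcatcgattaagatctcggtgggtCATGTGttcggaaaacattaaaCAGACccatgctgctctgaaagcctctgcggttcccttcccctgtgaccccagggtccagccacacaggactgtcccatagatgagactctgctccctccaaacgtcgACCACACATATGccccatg
2700003A03Rik, chr1:90279760-90280059, plus strand: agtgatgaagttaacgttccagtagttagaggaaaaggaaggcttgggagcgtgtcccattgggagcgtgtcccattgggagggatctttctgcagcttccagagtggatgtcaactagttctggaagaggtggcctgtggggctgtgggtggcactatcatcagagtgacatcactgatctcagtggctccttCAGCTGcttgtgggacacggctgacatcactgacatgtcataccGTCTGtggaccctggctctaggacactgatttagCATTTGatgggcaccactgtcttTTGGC

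The whole Cacnb2 window lay inside a gained region of 619 bp at a start within the gene, and the whole 3110009F21Rik window inside one of 1025 bp. Of the 2700003A03Rik window, 76 bases at its upstream end lay inside a gained region of 761 bp, and no motif match fell in those bases. Among 16 motifs searched on both strands, the SMAD box CAGAC occurred in the windows of 3110009F21Rik and 2700003A03Rik, and in 49.6% of all 32851 windows. The RUNX motif TGTGGT occurred in the 3110009F21Rik window and in 16.8% of all windows. The SOX motif AACAAT occurred in the Cacnb2 window and in 10.7% of all windows. The E-box CANNTG occurred in each of these windows and in 72.3% of all windows, and the NFI site TTGGC in those of Cacnb2 and 2700003A03Rik and in 46.7% of all windows. In Cacnb2 an E-box and the NFI site share bases. The AP-1 (TGANTCA), CRE (TGACGTCA), TEAD (GGAATG), BMP-SMAD (GGCGCC), FOX (TGTTTAC), ETS (GGAAGT), NF-kB, C/EBP (TTGCNNAA), EBF, HOX/PBX (TGATNNAT) and CTCF motifs had no match in these windows. They occurred in 7.81%, 1.79%, 14.7%, 11.9%, 3.65%, 23.8%, 1.63%, 10.8%, 0.904%, 8.85% and 0.371% of all windows in that order. The G and C content was 44.0% for Cacnb2, 49.3% for 3110009F21Rik and 52.3% for 2700003A03Rik, beside a median of 52.7% over all windows (quartiles 45.7 and 61.7%).

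Most clusters were pairs. There were 154 clusters of 2 regions, 15 of 3 and 1 of 4. The distance from the start of the first region to the end of the last had a median of 5.29 kb, with quartiles of 2.25 and 8.50 kb and a range of 0.525 to 14.3 kb. Median spans were 5.07 kb for clusters of 2 and 7.84 kb for clusters of 3, and the cluster of 4 spanned 11.4 kb. Gained sequence covered 210.3 kb of the 932 kb that the clusters spanned, or 22.6%. The covered share of single clusters ran between 5.92% and 95.0%, with a median of 23.3%, so that some clusters were nearly continuous gained domains and others were islands in unlisted sequence.

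The 187 gaps inside clusters had a median of 3270 bp and ran between 59 and 9632 bp. Of these gaps 21 (11.2%) were at most 200 bp, and 53 (28.3%) were at most 1 kb. Per kb of gap length there were 53 gaps up to 1 kb, 16.8 between 1 and 5 kb, 13.4 between 5 and 10 kb and 11.2 between 10 and 20 kb. Short gaps were thus the most frequent per kb, and the frequency changed little on either side of the 10 kb limit. In 44 clusters every gap was at most 1 kb. All 2945 neighbouring pairs of gained regions had a median gap of 306 kb. The pairs just inside the limit had gaps of 9606 bp, in Pawr, which encodes a pro-apoptotic protein, and of 9632 bp between Opa1 and Hes1. Those just outside it had gaps of 10026 bp near Gucy1a1, a guanylate cyclase subunit gene, and 10088 bp in Armc4.

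**Figure D1:**
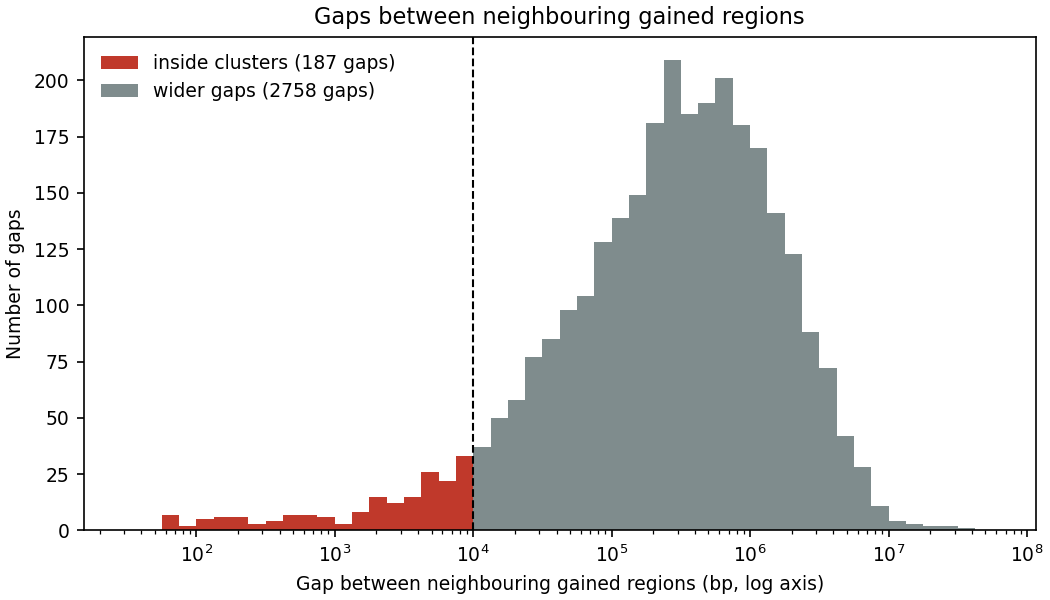
Histogram of the gaps between neighbouring gained regions on a log axis in bp; bar height is the number of gaps and the dashed line is the 10 kb limit. The 187 gaps inside clusters (red) form the lower tail of the distribution, whose bulk (grey) surrounds the median of 306 kb.

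The 5 smallest gaps were 59 to 64 bp. A pair in Slc26a7, an anion transporter gene, was separated by 59 bp and formed the shortest cluster, at 0.525 kb with regions of 266 and 200 bp. A pair on chromosome 14 (62159817 to 62161001), 115 kb from Dleu7, was also separated by 59 bp and was 95.0% covered. Gaps of 61 bp in Kctd1, 63 bp near the zinc finger gene Zfp518b and 64 bp between Atp5g3 and Lnpk followed. Whether such pairs belong to 1 broad open domain was not tested.

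The 16 clusters of 3 or more regions held 49 regions. Of these clusters 5 lay inside a protein-coding gene, 8 between genes with the nearest gene within 100 kb, and 3 farther than 100 kb from any protein-coding gene. Positions are on GRCm38, and regions and gaps are given in order along the chromosome.

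The single cluster of 4 lay on chromosome 1 (179881740 to 179893108), 67.0 kb upstream of Cdc42bpa, which encodes a kinase that acts on myosin light chain downstream of CDC42. Its regions were 545, 745, 473 and 245 bp wide, with gaps of 5568, 2137 and 1656 bp, and gained sequence covered 17.7% of its span. The next gained region lay 358 kb away, so the group stood alone.

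Of the 16 clusters, 2 lay upstream of Itga11 and Myh10. Upstream of Itga11, the collagen-binding integrin subunit of fibroblasts, a cluster of 3 (chromosome 9, 62637840 to 62647250) had regions of 676, 556 and 1560 bp with gaps of 5941 and 678 bp. Another pair, of 595 and 496 bp, lay 11.4 kb farther toward the gene, which puts 5 clustered regions between 39.7 and 16.0 kb before the annotated start. The 2 isolated gained regions linked to Itga11 lay inside it, at 6.79 and 34.8 kb from its start. The interval between Coro2b and Itga11 held no other gained region and no lost region. Upstream of Myh10, which encodes a nonmuscle myosin heavy chain, 3 regions of 574, 1090 and 906 bp lay 35.9, 34.3 and 26.4 kb before the start (chromosome 11, 68655718 to 68665962). They were the gained regions linked to Myh10, and none was isolated.

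Another 2 of the 16 clusters lay inside Ror2 and Tcf7l2. In Ror2, a receptor tyrosine kinase for WNT5A with a role in skeletal development, a cluster of 3 spanned 14.3 kb, the longest span of all (chromosome 13, 53253091 to 53267414). Its regions of 694, 475 and 1000 bp were separated by 3375 and 8780 bp and lay 32.7, 28.7 and 19.2 kb after the gene start. The other 2 gained regions of Ror2 were isolated, at 55.3 and 155 kb. In Tcf7l2, a transcription factor that binds beta-catenin, 3 regions of 435, 629 and 878 bp lay 94.2, 96.3 and 102 kb into the gene of 192 kb (chromosome 19, 55835801 to 55844408). No other gained region was linked to Tcf7l2.

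**Figure D2:**
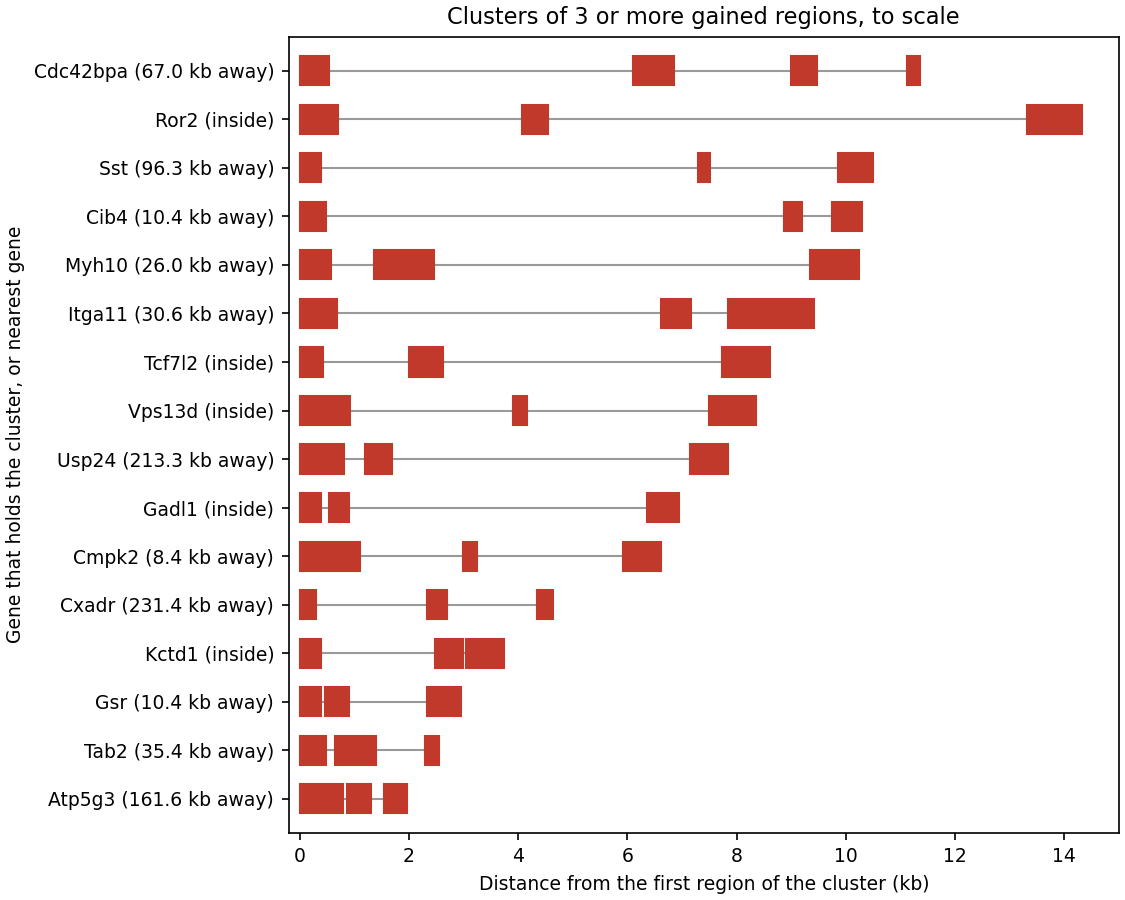
The 16 clusters of 3 or more gained regions, drawn to scale from the first region of each (kb); red boxes are gained regions and grey lines the gaps, labelled with the gene that holds the cluster or the nearest gene. Spans ran between 1.97 and 14.3 kb, and the clusters near Atp5g3, Tab2 and Gsr were the shortest.

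The remaining clusters of 3 lay at genes of several other functions. Inside genes were those of Vps13d, which encodes a lipid transfer protein, with gaps of 2976 and 3344 bp, Gadl1, a decarboxylase gene, with gaps of 137 and 5460 bp, and Kctd1, a BTB-domain repressor gene, with gaps of 2093 and 61 bp. The Kctd1 cluster was also held by the long noncoding gene 4933424G05Rik. The cluster upstream of Tab2, an adaptor of the kinase TAK1 in inflammatory signalling, spanned 2.56 kb with gaps of 156 and 897 bp, 35.4 kb from the gene. Near Gsr, which encodes glutathione reductase, gaps of 73 and 1430 bp made a cluster of 2.95 kb, 10.4 kb from the gene. These compact clusters were 58.8% and 49.0% covered.

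Wider clusters lay 8.42 kb downstream of Cmpk2, a mitochondrial nucleotide kinase gene induced by interferon, 10.4 kb upstream of Cib4, of the calcium and integrin binding family, and 96.3 kb downstream of Sst, which encodes the hormone somatostatin. Their spans were 6.62, 10.3 and 10.5 kb. Gained sequence covered 31.5%, 13.1% and 12.1% of them. The Cmpk2 cluster was the nearest of these to its gene.

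Farther than 100 kb from any protein-coding gene, the most compact cluster of 3 lay in the interval between Atp5g3, an ATP synthase subunit gene, and Lnpk (chromosome 2, 74074104 to 74076070). Its regions of 799, 439 and 432 bp were separated by 64 and 233 bp and covered 84.9% of 1.97 kb. It lay 162 kb from Atp5g3 and 439 kb from Lnpk. This interval is part of the gene desert beside the HoxD genes, which is known for limb enhancers. The others lay 213 kb from Usp24, a deubiquitinase gene, and 231 kb from Cxadr, a cell junction receptor gene, and spanned 7.84 and 4.64 kb. The cluster near Cxadr was held by the long noncoding gene Gm31431.

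Across all clusters, 81 of 170 (47.6%, exact 95% interval 39.9 to 55.4%) had every region inside 1 protein-coding gene. Of the others, 88 lay between genes, and 1, at Fgf2, crossed the start of the gene. The inside clusters lay in 79 different genes. Counted once per cluster, the host gene had a median length of 233 kb, between 30.9 and 1998 kb. Counted once per region, the median host of the 1177 isolated gained regions inside genes was 207 kb long. Hosts over 100 kb held 70 inside clusters (86.4%), beside 74.1% of the isolated regions inside genes. Where the strand was given, 22 of 60 inside clusters lay nearer the gene start and 38 nearer its end, by their position along the gene. Of the 88 clusters between genes, 10 were within 10 kb of a gene, 39 were 10 to 100 kb away and 39 farther, with a median distance of 79.2 kb and a farthest of 559 kb. Where the strand of the nearest gene was given, 22 of 36 were upstream of it and 14 downstream. Neither strand split is given for isolated gained or lost regions, so neither is read as a trait of clusters. Long noncoding genes held 17 of the 170 clusters, 12 of which lay between protein-coding genes. The share of isolated gained or lost regions in such genes is not given.

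Position relative to genes differed little between clustered and isolated gained regions. Midpoints inside a protein-coding gene made up 47.1% of the 357 clustered regions (exact 95% interval 41.8 to 52.4%), 45.1% of the 2608 isolated regions (43.2 to 47.1%) and 46.4% of the 556 lost regions (42.2 to 50.6%). The nearest gene was over 100 kb away for 23.2% of clustered (19.0 to 28.0%), 22.7% of isolated (21.1 to 24.4%) and 14.9% of lost regions (12.1 to 18.2%). The intervals of clustered and isolated regions overlapped at each of these measures. A gene end here means either boundary of a gene, its start included. Clustered regions lay at a median of 63.4 kb from a gene end, isolated regions at 55.2 kb and lost regions at 24.0 kb. Within 1 kb of a gene end lay 2 clustered regions (0.560%, 0.0679 to 2.01%), 30 isolated regions (1.15%, 0.777 to 1.64%) and 20 lost regions (3.60%, 2.21 to 5.50%). The 2 clustered ones were a region of 537 bp at 376 bp from an end of Sfi1, a centriole gene, and one of 943 bp at 591 bp from an end of Cep41, a cilium gene. These intervals cover counting error only, and regions of 1 cluster are neighbours, so no test was made between the groups.

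The width of clustered regions had a median of 550 bp (quartiles 417 and 729, range 200 to 1769 bp), beside 574 bp for isolated regions (442 and 765, range 200 to 1678 bp) and 611 bp for lost regions (480 and 786 bp). Means were 589 ± 238 bp for clustered regions (SD, n = 357 regions), 623 ± 242 bp for isolated regions (SD, n = 2608 regions) and 665 ± 248 bp for lost regions (SD, n = 556 regions). The difference of the medians, clustered minus isolated, was -24 bp, which was small against the spread over regions, and it was -48.5 bp with a gap limit of 5 kb and -1 bp with one of 20 kb. The widest clustered region, of 1769 bp, lay in Dnm3. With only the widest region of each cluster taken, the median was 121 bp above that of isolated regions. That choice by itself favours wide regions.

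No lost region lay within 50 kb of a clustered gained region. At that distance the count was 0 of 357 clustered regions, which allows a share of up to 0.840% (exact 95% upper bound 1.03%), and 69 of 2608 isolated regions (2.65%, exact 95% interval 2.06 to 3.34%). Within 100 kb the counts were 4 clustered regions (1.12%, 0.306 to 2.84%) and 133 isolated regions (5.10%, 4.29 to 6.01%). With gap limits of 20 and 50 kb the share within 100 kb was 1.81% and 3.03% of clustered regions, beside 5.26% and 5.38% of isolated regions, and the limit of 50 kb was added after the values were seen. Within 10 kb they were 0 and 10 isolated regions (0.383%). Counted by cluster, 0 of 170 clusters had a lost region within 50 kb (exact 95% upper bound 2.15%) and 2 had one within 100 kb (1.18%, 0.143 to 4.19%). The count at 50 kb depends on the limit of the rule, as 4 of 551 regions (0.726%) had one with a gap limit of 20 kb, beside 65 of 2414 isolated regions (2.69%), an alternative added after the values were seen. At 50 kb the bound by cluster overlaps the interval of isolated regions, and the difference was not tested. The 2 clusters were a pair 4.67 kb downstream of Mre11a, a DNA repair nuclease gene, with a lost region at 69.3 kb, and a pair between Plk2 and Actbl2 on chromosome 13, with one at 71.2 kb. Of the 556 lost regions, 3 lay within 100 kb of a clustered and 124 within 100 kb of an isolated gained region. There were 357 clustered and 2608 isolated gained regions to lie near, so these counts are not comparable as rates. Lost regions themselves clustered less, with 30 of 556 (5.40%, 3.67 to 7.61%) in 15 pairs, beside 12.0% of gained regions. The gained list is longer, so its regions lie closer together, and the shares are not comparable as rates.

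**Figure D3:**
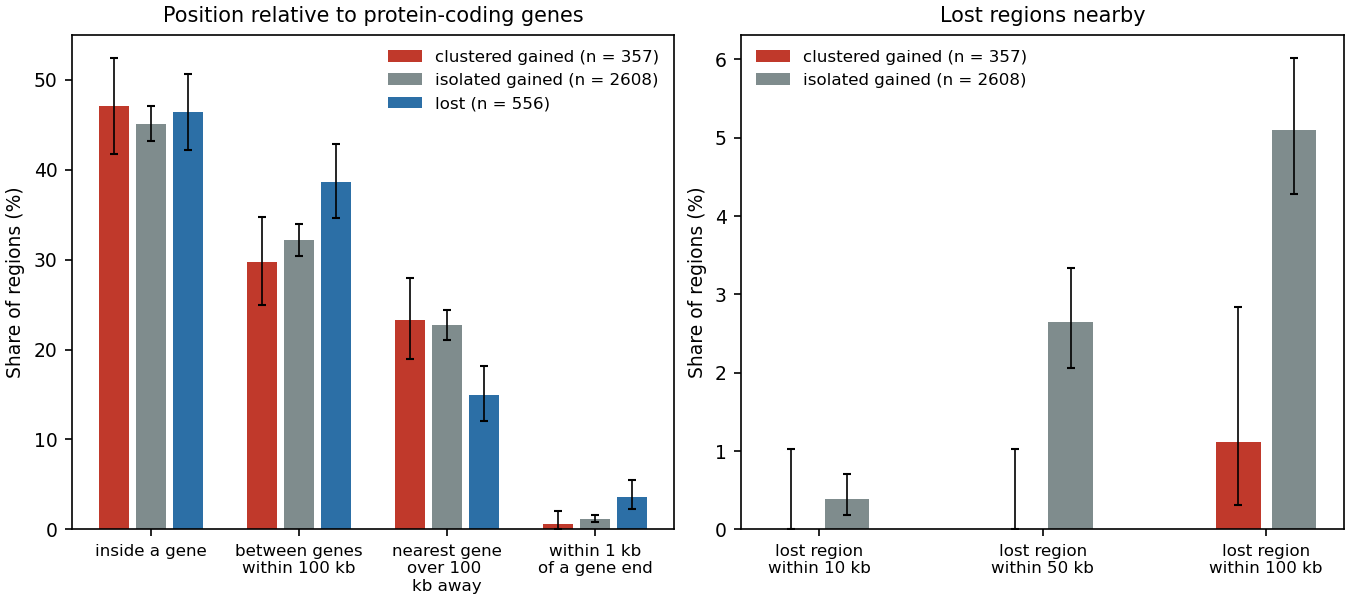
Left, share of regions (%) by position relative to protein-coding genes for clustered gained, isolated gained and lost regions; right, share of clustered and isolated gained regions with a lost region within 10, 50 and 100 kb; bars are shares and error bars exact 95% binomial intervals. Shares inside genes lie between 45.1 and 47.1%, and clustered regions had a lost region within 100 kb in 1.12% of cases, beside 5.10% of isolated regions.

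Most clusters had no further gained region within 50 kb. The nearest gained region outside the cluster lay at a median of 88.7 kb, beside 158 kb for isolated regions. It was within 50 kb for 60 of 170 clusters (35.3%, exact 95% interval 28.1 to 43.0%) and for 601 isolated regions (23.0%, 21.4 to 24.7%). These distances come from the same gaps that the rule used, both start beyond 10 kb, and they are given as a description. Among 81 intergenic intervals with a cluster, 7 held 2 clusters each. A lost region lay in 7 of the 81 intervals and in 0 of the 7 with 2 clusters. With so few intervals, 0 of 7 lies near the share over the 81. No share over all intergenic intervals is given. The 7 intervals with 2 clusters were named after their values were seen. The interval between Plpp3 and Usp24 held 10 gained regions, 5 of them clustered, over 1083 kb, and that between Fat4, a protocadherin gene, and Intu held 15, 4 of them clustered, over 1519 kb. The interval of 505 kb between Jun, which encodes an AP-1 subunit, and Fggy held 5, of which 4 were clustered, with pairs 294 and 337 kb from Jun. That between Snx13 and Ahr, the aryl hydrocarbon receptor gene, held 6, of which 4 were clustered. The others were the intervals between Coro2b and Itga11, Stxbp6 and Nova1, and Piezo2 and Txnl1, with 5 gained regions each.

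The 131 clusters within 100 kb of a gene were linked to 128 genes, and 39 clusters had no gene that near. Itga11, Dnm3 and Bbs9 had 2 clusters each. In Dnm3, a dynamin gene whose opposite strand carries a microRNA host transcript, pairs of 917 and 815 bp and of 844 and 1769 bp were separated by 4006 and 5415 bp. The first pair lay 474 and 469 kb and the second 384 and 377 kb after the gene start, toward its end, and 6 of its 10 gained regions were isolated. In Bbs9, a gene of the cilium BBSome complex, pairs with gaps of 2000 and 5680 bp lay 311 and 314 kb and 358 and 364 kb after the start of the gene of 413 kb, and 2 of its 6 gained regions were isolated. No lost region was linked to any of these 3 genes. This count has no share over all genes beside it and is not read as a trait of these genes.

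**Figure D4:**
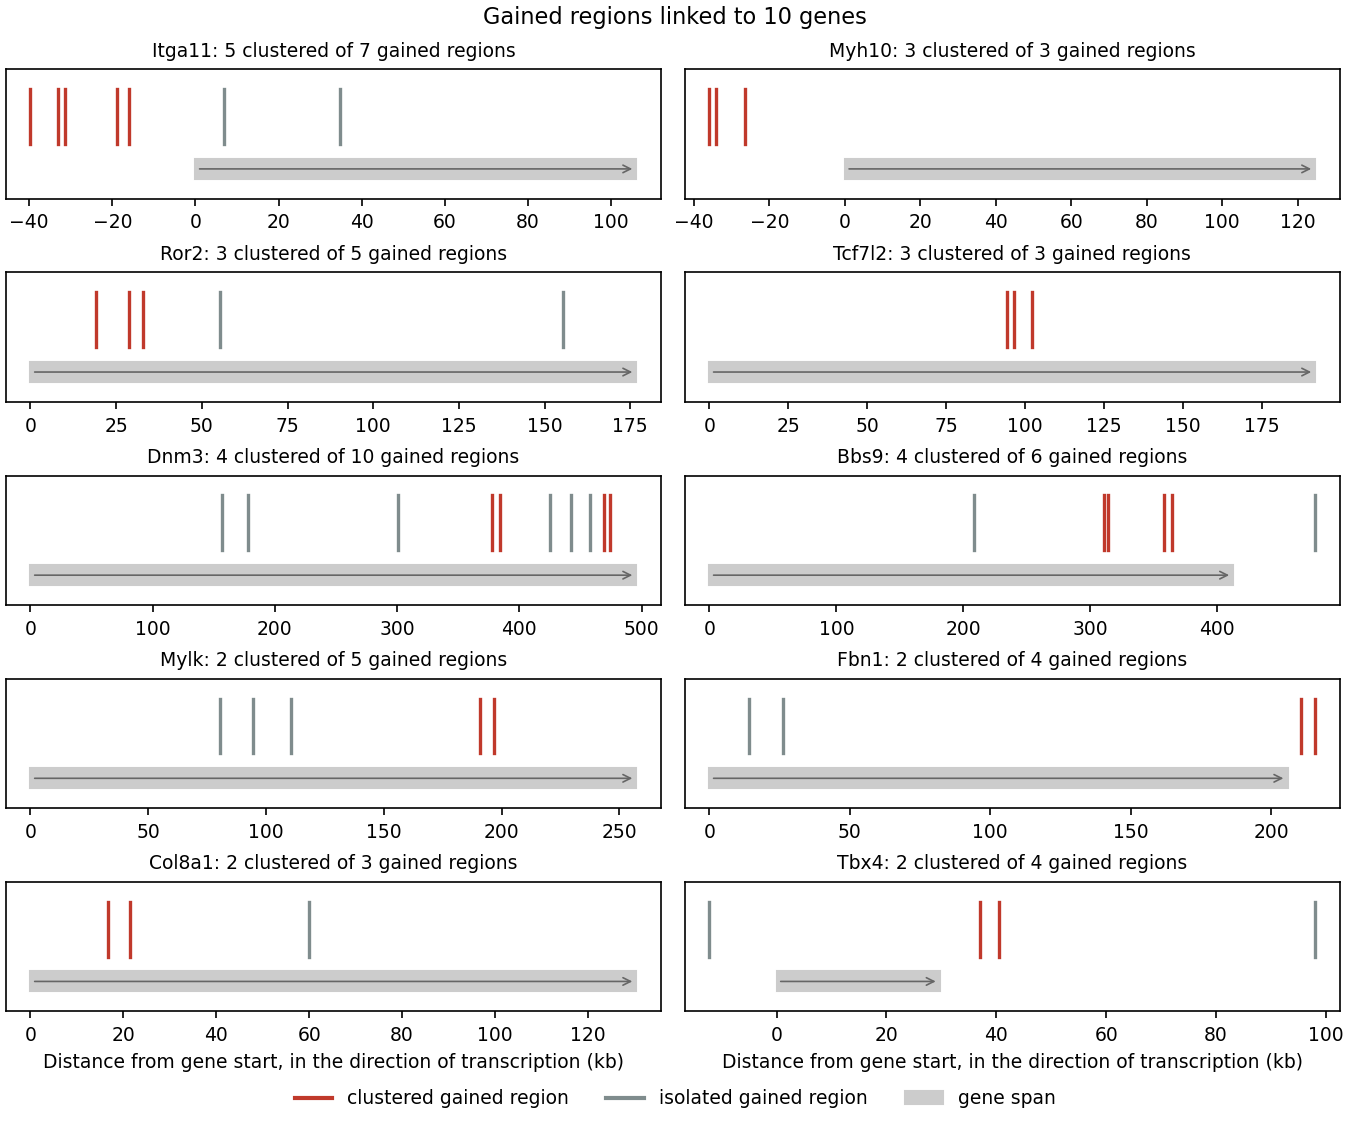
Gained regions linked to 10 genes, by distance from the annotated gene start in the direction of transcription (kb, a separate scale for each gene); red ticks are clustered regions, grey ticks isolated ones and grey bars the gene. All 5 clustered regions of Itga11 and all 3 of Myh10 lie upstream of the gene, whereas those of Ror2, Tcf7l2, Dnm3, Bbs9, Mylk and Col8a1 lie inside it.

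Of the 21 gene lists, 8 held a gene with a cluster and 13 held none. Over all genes with a gained region, 128 of 1591 (8.05%) had a cluster, and 452 had 2 or more gained regions. For these counts each region was linked to genes on its own, so regions of the same cluster can be linked to different genes. The lists held 479 genes. Of these 142 had a gained region, 57 had 2 or more, and 16 had a cluster (11.3% of those with a gained region). The numbers in single lists are small, so that a count of 0 among 10 or fewer genes lies near the share over all genes. These are counts, with no test of any list, and the lists were made with earlier results of these data known.

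In the matrix list, 19 genes had a gained region, 10 had 2 or more and 4 had a cluster. Fbn1 and Fbn2 encode fibrillins, which build microfibrils and bind latent TGF-beta complexes. The pair at Fbn1, of 661 and 461 bp, lay 4.69 kb downstream of the gene, while its 2 isolated regions were inside, 26.0 and 13.9 kb from the start. The pair at Fbn2, of 1023 and 816 bp, lay 3.00 kb outside the gene. In Col8a1, a network-forming collagen gene, regions of 362 and 561 bp lay 21.4 and 16.8 kb after the start. Near Lum, which encodes the collagen-binding proteoglycan lumican and is also in the fibroblast marker list, regions of 556 and 861 bp lay 17.7 and 9.47 kb outside the gene.

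In the contraction and mechanosensing list, 10 genes had a gained region, 8 had 2 or more and 3 had a cluster. Besides Myh10 these were Mylk, the myosin light chain kinase gene, with regions of 938 and 524 bp at 191 and 197 kb inside a gene of 257 kb, and Piezo2, a mechanically gated channel gene, with regions of 342 and 315 bp at 27.8 and 36.0 kb outside the gene. Of the gained regions of Mylk, 3 were isolated, at 80.6, 94.5 and 111 kb from its start. In the integrin and adhesion list, 12 genes had a gained region, 5 had 2 or more and 2 had a cluster, Itga11 and Itga8. The integrin subunit gene Itga8 held regions of 417 and 1204 bp, separated by 550 bp, at 90.3 and 89.0 kb after its start. In the WNT list, of 17 genes with a gained region, 7 had 2 or more and 2 had a cluster, Ror2 and Tcf7l2.

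Of the limb and mesenchyme patterning list, 13 genes had a gained region, 5 had 2 or more and 2 had a cluster, both T-box factors. At Tbx4, a regulator of hindlimb outgrowth, regions of 272 and 397 bp lay 7.25 and 10.7 kb past the gene's end, and 2 isolated regions lay 12.2 kb before its start and 68.3 kb past its end. Tbx15, a skeletal patterning factor, held regions of 762 and 531 bp separated by 8165 bp. In the hedgehog, FGF and Notch list, of 8 genes with a gained region, 2 had 2 or more and 1 had a cluster. This was the growth factor gene Fgf2. Its regions, of 606 and 1181 bp, lay 1.90 kb before the annotated start and 6.02 kb after it. In the axon guidance list, of 17 genes with a gained region, 9 had 2 or more and 2 had a cluster. Robo2, a SLIT receptor gene, held regions of 341 and 481 bp separated by 5333 bp, and Sema3a, a repulsive ligand gene, regions of 292 and 483 bp separated by 621 bp. No lost region was linked to any of the 16 list genes with a cluster. The share of all genes with a linked lost region is not given, so this count is not read as a trait of these genes.

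Clusters were at 0 of 10 genes with a gained region in the list for BMP and TGF-beta signalling (ligands, their receptors, SMAD proteins), at 0 of 6 BMP targets and feedback genes and at 0 of 10 osteoblast genes. In each of these 3 lists only 2 genes had 2 or more gained regions, so few had enough linked regions for a cluster by themselves. With a gap limit of 20 kb, an alternative added after the values were seen, 1 gene of each had a cluster: Acvr1b, a type I receptor of activins, Msx2, a homeobox target of BMP signalling, and Runx2, the osteoblast master regulator. Each cluster was linked only to genes that hold it or to the nearest gene within 100 kb. At the 10 kb gap limit, a pair 128 kb from Smad1 had no linked gene. Another pair, 114 kb from Msx1, was linked to Stx18, 96.1 kb away. Counts were also 0 of 6 for cartilage, tendon and joint genes and 0 of 10 for inflammation genes. They were 0 of 1 for YAP and TEAD genes and 0 of 1 for AP-1 and immediate early genes. Among markers of other cell types, the endothelial and neural lists (8 genes each) had 1 gene each with a gained region and no cluster. The skeletal muscle, blood and epithelial lists, of 8 genes each, and the mesothelial list, of 6, had no gained region. Over all protein-coding genes, 1591 of 21887 had a gained region. A count of 0 in so small a list lies near that share. In the fibroblast marker list of 10 genes, 3 had a gained region, 2 had 2 or more and 1, Lum, had a cluster. The cluster at Lum also lay 29.4 kb from Dcn, and a cluster linked to Gorab lay 40.5 kb from Prrx1. Dcn and Prrx1 are in the same list, so its count depends on the link to the nearest gene. Acvr1 itself (chromosome 2, 58446438 to 58566828) held no gained region, and the nearest cluster, a pair near Dapl1, lay 0.986 Mb away.

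Clusters were found on each autosome and on X. Chromosome 16 had the highest clustered share of gained regions, 18.7% of 150 (exact 95% interval 12.8 to 25.8%), in 13 clusters. Chromosome 1 followed with 16.7% of 264 (12.4 to 21.7%) in 21 clusters and chromosome 2 with 16.6% of 223 (12.0 to 22.1%) in 18. The lowest share was 5.45% of 110 on chromosome 15 (2.03 to 11.5%), in 3 clusters, and chromosome X had 1 cluster, near Adgrg2, an adhesion receptor gene. Members of a cluster are neighbours, not independent units, so these intervals are too narrow to set chromosomes apart. The extremes were picked among 20 chromosomes, and the differences were not tested.

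**Figure D5:**
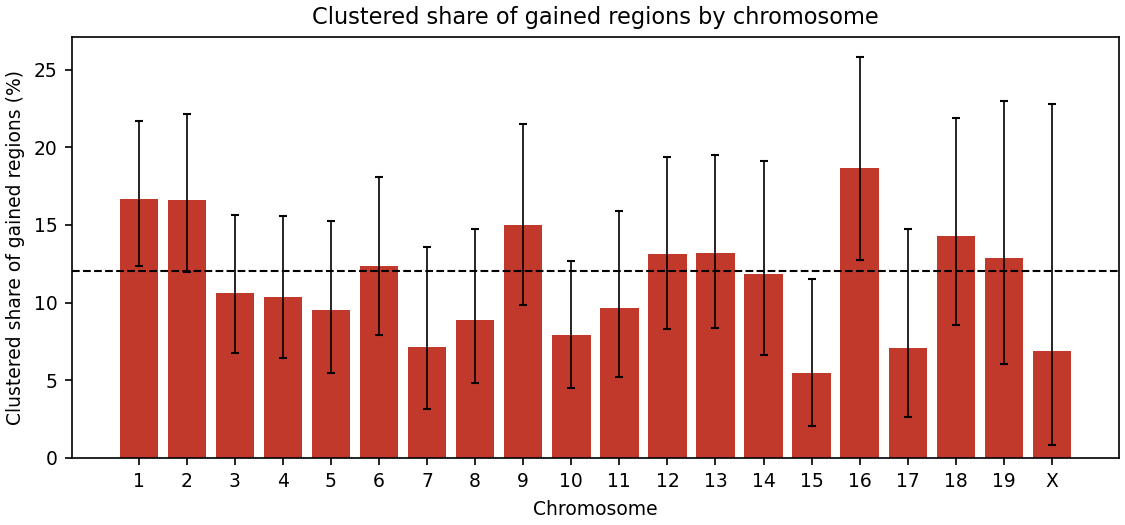
Share of the gained regions of each chromosome that were clustered (%), with exact 95% binomial intervals; the dashed line is the share over all chromosomes, 12.0%. Shares ran between 5.45% on chromosome 15 and 18.7% on chromosome 16. The intervals treat the neighbouring regions of a cluster as independent, and the differences were not tested.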

How the data were processed

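The authors' deposited data are 2 lists of regions that give each region's chromosome and both its ends, and their unit is the base pair position, not a score, count or signal. Per the submitters' processing notes, the authors' tools included DESeq2, featureCounts and MACS2, with Bowtie2 and SAMtools, Trimmomatic and bedtools, and the builds named are GRCm38 and mm10. Versions, cutoffs, pooling, duplicate handling and the transposase offset were not given in the sources used here. Direction was read from each list's name. How peaks were merged or split upstream would change the number of clusters.

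Regions were sorted and chained at a gap of at most 10 kb. Measured between midpoints in place of edges, 345 regions were clustered. A cluster was linked to the protein-coding genes (RefSeq GRCm38.p6, 21887 genes on chromosomes 1 to 19, X and Y) that hold all its midpoints, to the gene that holds part of them, or else to the nearest gene within 100 kb. Strand came from promoter windows and was given for 17492 of these genes. Shares carry exact Clopper-Pearson 95% intervals, and limits for a count of 0 use 3 counts; both cover counting error only. No test was made, since regions are not replicates and no value per library is given. Chaining was tested on simulated positions.

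Genes were named by rule: clusters of 3 or more regions, the 5 smallest gaps, list members with a cluster (up to 4 a list), genes with 2 clusters, clusters with a region within 1 kb of a gene end, clusters with a lost region within 10 kb (there were none) and Acvr1. Other names were chosen after their values were seen. The members and gene lists were chosen with earlier results of these data known. Sequence of the regions outside promoter windows was not used here. Python 3.11.15, pandas 2.3.3, numpy 2.4.6, scipy 1.17.1 and matplotlib 3.10.9 were used.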

Additional observations from a re-analysis of the deposited data

How the results depend on the processing

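The number of clustered regions followed the gap limit, with 137, 232, 551 and 958 regions in 67, 112, 252 and 416 clusters at 2, 5, 20 and 50 kb. Clusters of 3 or more numbered 8 at 5 kb and 38 at 20 kb, and the median span was 2.87 kb at 5 kb and 9.88 kb at 20 kb. With regions up to 500 bp apart merged first, 293 merged regions formed 141 clusters. With lost regions in the chain 367 gained regions were clustered, as 10 isolated ones each joined a lost one. Counting all annotated genes put 56.0% of clustered regions inside a gene, and a limit of 5 kb put 3.36% near a gene end. A lost region lay within 10 kb of 0% and within 50 kb of 0% of clustered regions. In alternatives added after the values were seen, gap limits of 20 and 50 kb gave 0.726% and 1.57% within 50 kb, the limit of 50 kb gave 3.03% within 100 kb, and list genes with a cluster numbered 9 at 5 kb, 27 at 20 kb and 13 with links within 10 kb, beside 16. The depth behind each region is unknown. G and C content and motif shares of the regions were not run, as their sequence was not used here. No paired analysis was possible because the lists carry no value per library.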
